A study of Sus scrofa with 14 samples.

Results

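The solute carrier genes described here were the genes with a symbol that starts with SLC and a number, taken from all probes of the array whose RefSeq accession could be paired with a symbol. SLC10A2, SLC46A1, SLC5A1, SLC2A2 and SLC2A5 were left out by the same rule, and the probe with the highest mean signal stood for a gene. This gave 75 solute carrier genes with 151 probes, out of 3020 named genes on an array of 43603 probes. The rule itself used no measured effect of onion. The genes were sorted by the substrate of the encoded protein into 13 classes, the largest being metals and heme (14 genes), sodium, proton, bicarbonate, chloride and calcium (13), amino acids and peptides (12), mitochondrial carriers (8) and organic ions, bile acids and drugs (7).

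Expression was measured in the pig SISP model, in which segments of the small intestine of anaesthetised, 5-week-old male piglets are perfused in place with intact blood supply. Each of 7 pigs gave a segment perfused with control digest (saline digest, Sd) and a neighbouring segment perfused for 6 h with digested onion. This was yellow onion digest (YOd) in pigs 1, 2 and 4 and white onion digest (WOd) in pigs 5, 6, 7 and 8, which gave 14 arrays, 1 for each segment. The onion digests were diluted in peptone. Sd was diluted further, in a saline solution that held glucose and casamino acids. Onion, diluent and degree of dilution thus changed together and cannot be told apart. The samples were scrapings of jejunal mucosa, a mixture of cells, in which fewer cells of a type and less RNA per cell cannot be told apart. Of 10 enterocyte marker genes, 5 had a named probe. Of these, FABP2, ANPEP, APOA4 and DPP4 were saturated on all 14 arrays and FABP1 on 13. The share of probes well above background on an array ran from 50.05% on the Sd array of pig 8 to 70.7% on the Sd array of pig 2. The second lowest share was 54.9%, on the WOd array of pig 7. The Sd array of pig 8 and the WOd array of pig 7 also had the most outlier spots, 462 and 282. The arrays lay on 5 slides, with the Sd and the onion array of a pig on different slides in pigs 2 and 7.

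Solute carriers are membrane proteins that move small molecules across a membrane without using ATP directly. In the small intestine, those of the brush border take up peptides, amino acids, sugars, vitamins and metals from the lumen, and those of the basolateral membrane pass them on to the blood. Others exchange chloride, bicarbonate, sodium and protons and thereby set the flow of fluid, and many serve mitochondria or the Golgi apparatus. Levels below are log2 values of the signal relative to the 75th percentile of the array, and ratios are differences of these levels within a pig, onion segment minus Sd segment, and so log2 fold changes. A level of a probe was compared between segments only, never with the level of another probe.

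Of the 75 solute carrier genes, 56 were well above background on all 14 arrays, 16 on some and 3 (the cationic amino acid transporter SLC7A3, the zinc exporter SLC30A2 and the anion exchanger SLC26A4) on none. In the fit over the 7 pigs 62 were tested, since 13 were above the floor of -4.43 on fewer than 7 arrays. The floor was the value to which all lower signals were raised. Saturation of the scanner on all arrays limited the strongest probe of 4 of the 62. These were the cationic amino acid transporter SLC7A7, the mitochondrial phosphate carrier SLC25A3, the ADP/ATP carrier SLC25A6 and the choline transporter-like SLC44A4. In pig 4 the ratio of these probes was 0.63 to 0.74, with a median of 0.64. The 75th percentile by which an array was scaled was 795 on the Sd array and 515 on the YOd array of this pig. A saturated probe moves with this scaling, and no fold change is given for these 4 genes. Weaker probes of the same genes that were not saturated are given with their classes. This left 58 solute carrier genes with a measured ratio.

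With onion, SLC16A1 was higher and SLC26A3 lower than in Sd, and the median ratio of the solute carrier genes was close to that of the array as a whole. The median of the mean ratios was 0.062, against 0.078 for the 2375 genes of the array that were measured in the same way. The mean ratio was above 0 in 36 of the 58 genes, or 62.1%, against 69.7% of all genes. Following the thresholds of the study (raw p below 0.05 in limma and a fold change above 1.5), 2 of the 62 tested solute carrier genes were called in the 7 pigs, against 1.22% of all 2453 genes tested. The lactate transporter SLC16A1 was higher (background of higher genes 0.938%) and the chloride/bicarbonate exchanger SLC26A3 was lower (background of lower genes 0.285%). None of the genes of the array, solute carriers included, passed the Benjamini-Hochberg adjustment. At a raw p below 0.05 without a limit on the fold change there were 10 solute carrier genes, or 16.1%, against 6.85% of all genes, and 8 of the 10 were higher with onion. The array as a whole also leaned upwards, with 69.7% of genes at a mean ratio above 0 and 23 of its 30 called genes higher.

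**Figure D1:**
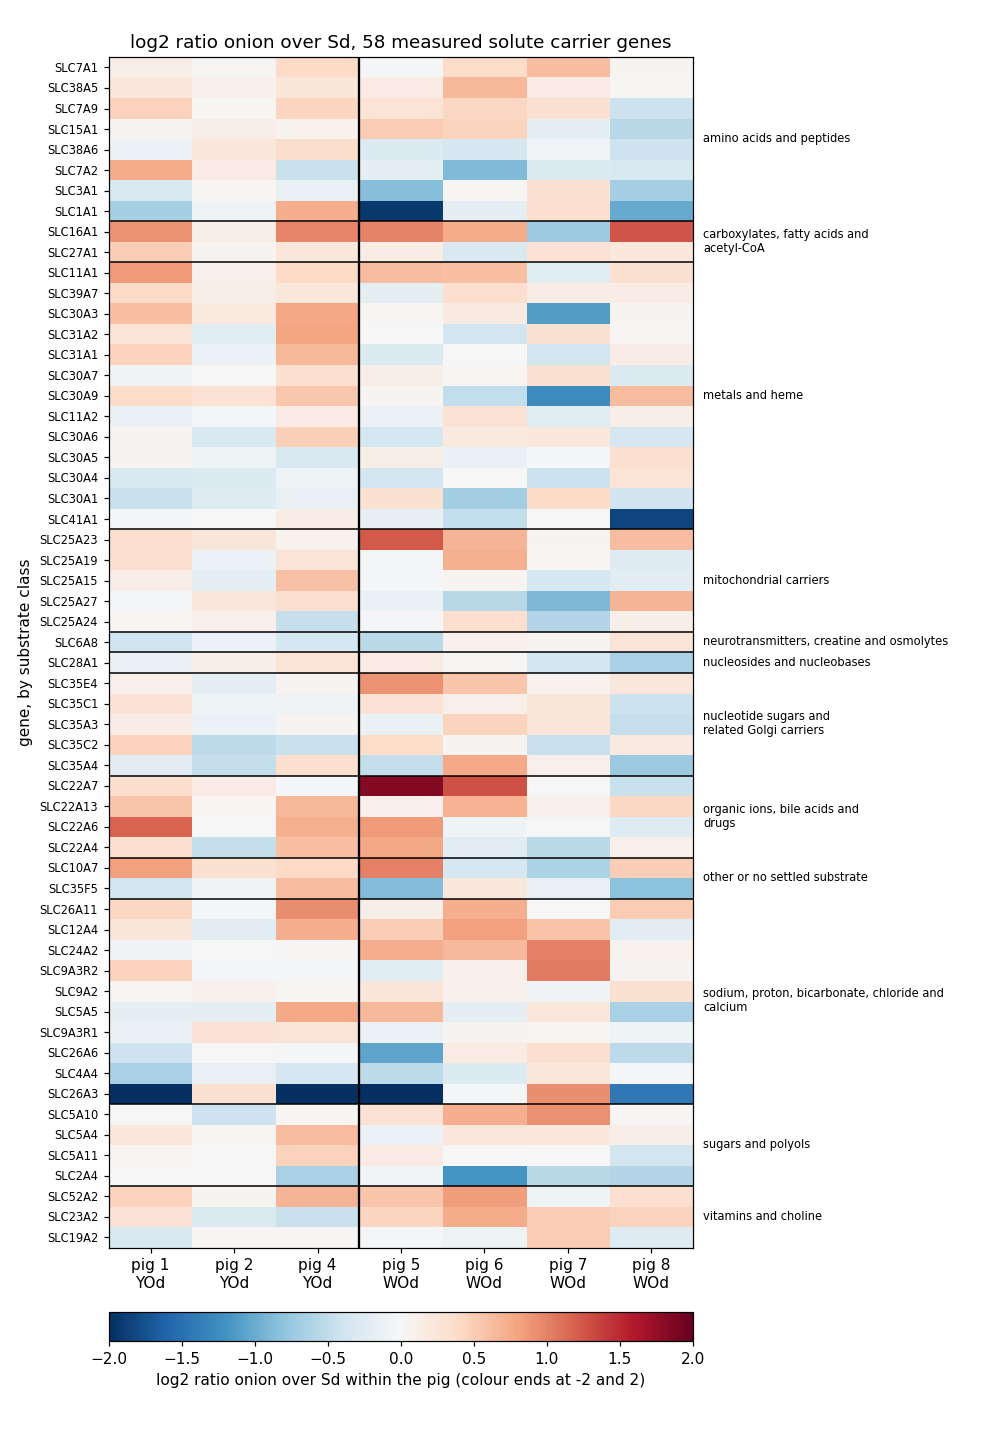
Log2 ratio onion over Sd (colour) for each pig (columns, YOd pigs left of the line) and each of the 58 solute carrier genes with a measured ratio (rows, by substrate class and by falling mean ratio within a class). Colour ends at -2 and 2, which SLC26A3 passed in pigs 1, 4 and 5, while the column of pig 2 is pale throughout.

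Among the genes of ion transport, SLC26A3 stood apart. It encodes the exchanger of the apical membrane that takes up chloride for bicarbonate, and its loss causes congenital chloride diarrhoea. On the Sd arrays of pigs 1, 2, 4, 5, 6, 7 and 8 its level was 1.98, 2.68, 1.87, 1.12, 3.84, 2.81 and -0.33. In the onion segments of the same pigs the level was -1.87, 2.99, -1.14, -1.37, 3.80, 3.74 and -1.76. The ratio was thus -3.85, -3.00, -2.49 and -1.43 in pigs 1, 4, 5 and 8, which correspond to a level 14.5-fold, 8.02-fold, 5.63-fold and 2.69-fold lower with onion. In pigs 2, 6 and 7 it was 0.31, -0.034 and 0.92. The pigs thus fell apart into 4 with a much lower level and 3 without, with both onions on both sides, and the 3 without were those with the highest level on the Sd array. A second probe of SLC26A3 gave ratios of -3.50, 0.13, -2.91, -2.77, -0.012, 0.64 and -0.52 in the same order of pigs. Both probes therefore had the same sign in every pig.

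Over the 7 pigs the ratio of SLC26A3 was -1.37 (SE 0.54, raw p 0.0285, adjusted p 0.658 in limma). The exact sign-flip permutation test over the 7 pigs (two-sided) gave p = 0.109, and the SD of the ratio between pigs was 1.82. The call was lost without pig 1, 4 or 5, with ratios of -0.95, -1.10 and -1.18, and without pig 8 at -1.36. In the 5 pigs with both arrays on 1 slide the ratio was -2.16 (SE 0.45, adjusted p 0.111 in limma). This subset leaves out pigs 2 and 7, the 2 pigs with the highest ratios of SLC26A3.

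Other genes were read beside this result. The bile acid transporter SLC10A2 and the bile acid binding protein FABP6 are marker genes of the distal small intestine, and both had a probe. The ratio of SLC10A2 was -1.01, -0.0040, -2.57, -1.58, -0.51, 1.18 and -0.69 in the order of pigs given above, and that of FABP6 was 0.54, 0.048, -0.83, 1.79, -5.93, 0.84 and 0.15. SLC10A2 had a ratio below 0 in pigs 1, 4, 5 and 8, as had SLC26A3, but also in pigs 2 and 6, whereas FABP6 had one in pigs 4 and 6 only. The level of FABP6 on the Sd arrays ranged from -2.91 to 6.52, so the segments of different pigs differed in this marker before any onion effect. The summed level of both distal markers was -2.26 to 6.55 in the Sd segments and -2.36 to 3.92 in the onion segments. Of 7 genes of crypt cells and the cell cycle 3 had a probe (TOP2A, CCNB1 and CDK1), with a summed level of 3.25 to 4.39 in Sd and 3.06 to 4.32 in onion segments. The ratio of this sum was -0.20, -0.11, -1.12, -0.42, -0.12, 0.40 and -0.81 in the same order, below 0 in every pig but pig 7. SLC10A2 was well above background on 12 arrays and the other 4 of these markers on all 14. The summed goblet, enteroendocrine, lymphocyte and smooth muscle markers (2 of 5, 5 of 6, 7 of 8 and 4 of 7 with a probe) had ratios from -0.62 to 0.73, from -0.25 to 0.90, from -0.88 to 0.52 and from -0.78 to 0.26. The part of all these markers in the result was not tested.

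The remaining genes of ion transport moved less. SLC26A6, the apical exchanger of chloride with bicarbonate and oxalate, had ratios of -0.41, -0.0038, -0.018, -1.05, 0.16, 0.32 and -0.52, a mean of -0.22 (SE 0.16, raw p 0.202). The sodium bicarbonate cotransporter SLC4A4, which brings bicarbonate into the cell at the basolateral side, was lower in 6 of 7 pigs, with ratios from -0.66 in pig 1 to 0.22 in pig 7 and a mean of -0.25 (SE 0.12, raw p 0.0577). SLC9A2, a sodium/proton exchanger of the apical membrane, lay between -0.076 and 0.31 in every pig and had the smallest SD of the ratio of all measured solute carrier genes, 0.13. The potassium chloride cotransporter SLC12A4 and the anion transporter SLC26A11 had raw p below 0.05, with mean ratios of 0.35 (SE 0.15) and 0.38 (SE 0.14). The ratio of SLC26A11 was below 0 in pig 2 only, at -0.027. SLC9A3R1 and SLC9A3R2 carry a solute carrier symbol but encode scaffold proteins that hold transporters at the membrane. Their mean ratios were 0.043 (SE 0.097) and 0.19 (SE 0.15), and SLC9A3R1 was saturated on 4 arrays. In this class 7 of 10 measured genes had a mean ratio above 0, as had 69.7% of all genes, with a class median of 0.081.

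**Figure D2:**
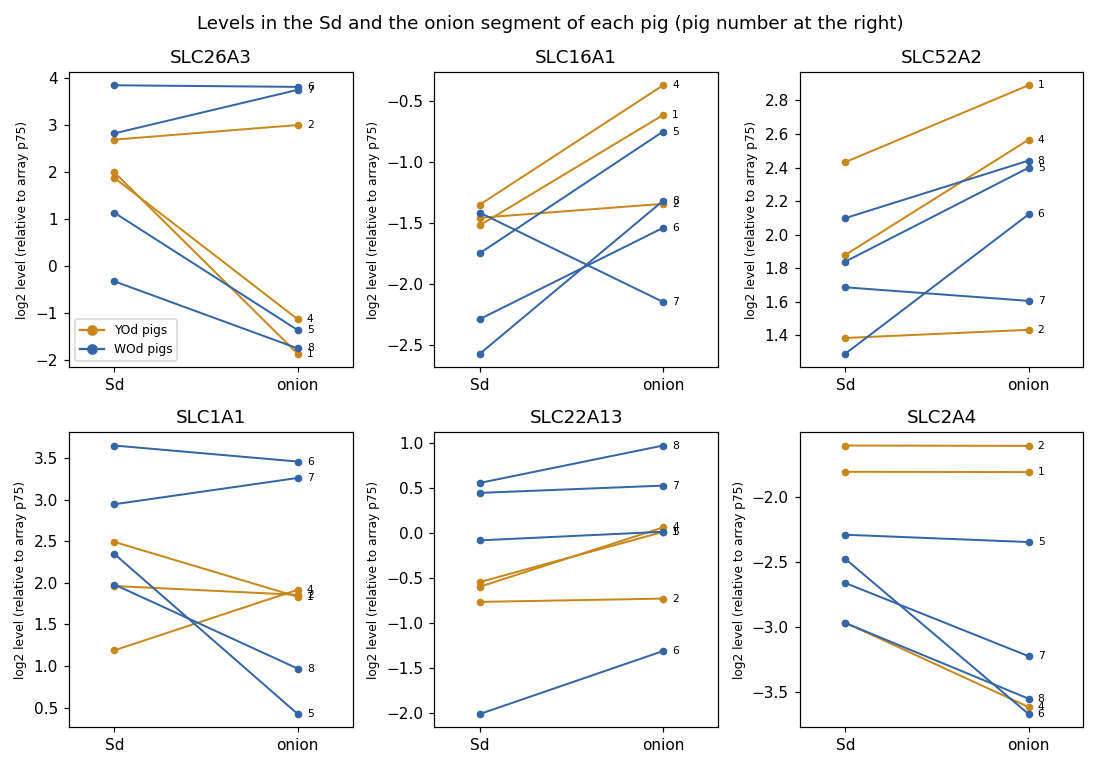
Log2 level relative to the 75th percentile of the array in the Sd and the onion segment of each pig, with the pig number at the right, YOd pigs in ochre and WOd pigs in blue, for 6 solute carrier genes. SLC26A3 splits into 4 steep falling lines and 3 lines that end at 2.99 or above, whereas SLC16A1 rises in every pig but pig 7.

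SLC16A1 encodes the transporter that moves lactate and short-chain fatty acids such as butyrate together with a proton. On the Sd arrays its level was -1.52, -1.46, -1.35, -1.75, -2.29, -1.42 and -2.57, and in the onion segments -0.62, -1.34, -0.37, -0.75, -1.54, -2.15 and -1.32. The ratio was between 0.75 and 1.25 in pigs 1, 4, 5, 6 and 8, 0.11 in pig 2 and -0.73 in pig 7. The onion segment was higher in 6 of 7 pigs, but the levels of the Sd and the onion group overlapped. The mean ratio was 0.61 (SE 0.22, raw p 0.0181, adjusted p 0.635 in limma), a 1.52-fold higher level. The exact sign-flip permutation test over the 7 pigs gave p = 0.0469 (two-sided, not adjusted). A second probe gave ratios from -0.59 to 0.91 and probe 3 from -0.41 to 1.43, both with pig 7 alone below 0. The call was lost without pig 1, 4, 5, 6 or 8, with ratios of 0.56, 0.55, 0.54, 0.58 and 0.50. Pig 7 had its arrays on different slides, and without it the ratio was 0.83 (SE 0.15, adjusted p 0.159). In the 5 pigs with both arrays on 1 slide it was 0.97 (SE 0.13, adjusted p 0.0124 in limma), and 14 of all 2453 genes passed the adjustment. This subset leaves out pigs 2 and 7, the 2 pigs with the lowest ratios of SLC16A1, so it is no independent check. The fold change lay close to the threshold, and relative to the median of all genes the ratio was 0.52 and no longer called. SLC27A1, a transport protein of long-chain fatty acids of the same class, had a mean ratio of 0.16 (SE 0.11, raw p 0.171).

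Genes of peptide and amino acid uptake had no called member among 8 measured genes, with 4 mean ratios above 0 and 4 below and a class median of -0.012. The peptide transporter SLC15A1, which takes up dipeptides and tripeptides with a proton, had ratios of 0.050, 0.13, 0.075, 0.52, 0.45, -0.20 and -0.56. Its mean was 0.065 (SE 0.13, raw p 0.639), and the WOd pigs alone spanned both extremes. SLC7A9 and SLC3A1 encode the light and the heavy subunit of the apical exchanger for cystine and basic amino acids, which acts as a pair. SLC7A9 was higher in 6 of 7 pigs with ratios from -0.43 in pig 8 to 0.45 in pig 1, a mean of 0.21 (SE 0.12). SLC3A1 had ratios of -0.30, 0.036, -0.14, -0.86, 0.025, 0.30 and -0.67, a mean of -0.23 (SE 0.15). The mean ratios of the subunits had opposite signs, although neither passed a raw p of 0.05 (0.119 and 0.145).

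SLC1A1, the apical transporter of glutamate and aspartate, varied most in this class. Its level on the Sd arrays ranged from 1.19 in pig 4 to 3.66 in pig 6 (median 2.35). The ratios were -0.66, -0.11, 0.73, -1.93, -0.19, 0.32 and -1.01, with a mean of -0.41 (SE 0.27, raw p 0.161). In pig 5 the level was 3.80-fold lower with onion, and all 4 probes of SLC1A1 gave a ratio of -1.45 or below in this pig. In pig 8 the probes gave -1.01, -0.084, -0.23 and -0.80, and in pigs 2, 4, 6 and 7 they differed in sign. The neutral amino acid transporter SLC38A5 was higher in all 7 pigs, but by little, from 0.018 in pig 8 to 0.66 in pig 6 (mean 0.22, SE 0.10). The cationic amino acid transporter SLC7A1 was higher in 6 of 7 pigs (mean 0.22, SE 0.11). SLC38A6 had a mean of -0.089 (SE 0.12) with the smallest SD of the level over Sd arrays in this class, 0.26. For SLC7A7, which passes cationic amino acids to the blood and was saturated at its strongest probe, 3 weaker probes were not saturated. Their ratios were 0.91 to 1.03 in pig 4 and -1.22 to -0.065 in pig 5, so the probes agreed in sign in these pigs, and their means lay between 0.025 and 0.19.

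Among the 4 sugar transporters, SLC2A4 encodes the insulin-regulated glucose transporter known from muscle and fat. It was lower in all 7 pigs, with ratios of -0.0021, -0.0026, -0.65, -0.056, -1.19, -0.56 and -0.58. The mean was -0.43 (SE 0.15, raw p 0.0170, adjusted p 0.635). Of the measured solute carrier genes SLC2A4 was the only gene with this sign in all pigs, against 0.215% of all genes. The other probes did not share this pattern: a second probe was lower in 4 of 7 pigs and probe 3 had a mean ratio of 0.018. SLC5A4, a sodium-dependent glucose sensor or transporter depending on the species, was saturated on 10 arrays, which limits its mean ratio of 0.19 (SE 0.11). SLC5A10, a sodium-dependent transporter of mannose and fructose, had a mean of 0.22 (SE 0.16), and SLC5A11, which carries myo-inositol, one of 0.044 (SE 0.11).

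Of the vitamin transporters, SLC52A2, a riboflavin transporter, had the lowest raw p of the 62 tested solute carrier genes over the 7 pigs. Its level on the Sd arrays ranged from 1.29 to 2.43, and the ratios were 0.46, 0.049, 0.69, 0.56, 0.83, -0.081 and 0.34. The mean was 0.41 (SE 0.13, raw p 0.00901, adjusted p 0.635), a change under the threshold of 1.5-fold. The other 2 probes of SLC52A2 gave means of 0.42 and 0.36. The sodium-dependent vitamin C transporter SLC23A2 had ratios of 0.28, -0.29 and -0.45 in the YOd pigs and 0.43, 0.74, 0.50 and 0.44 in the WOd pigs. The thiamine transporter SLC19A2 lay between -0.31 and 0.51, with a mean of -0.019 (SE 0.11). The strongest probe of SLC44A4 was saturated, and its 2 probes without saturation had mean ratios of -0.16 and -0.14.

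All 4 measured organic ion transporters had a mean ratio above 0, as had 69.7% of all genes, with a class median of 0.35. SLC22A13, a transporter of urate and nicotinate, was higher in all 7 pigs, from 0.036 in pig 2 to 0.70 in pig 6 (mean 0.36, SE 0.12, raw p 0.0111). Together with SLC38A5 and the mitochondrial carrier SLC25A23 it made up the 3 of 58 solute carrier genes that were higher in every pig, against 1.68% of all genes. The levels of SLC22A13 nevertheless overlapped between the groups, since its level on the Sd arrays ranged from -2.02 to 0.55. SLC22A6, an exchanger of organic anions, had ratios of 1.16, 0.00037, 0.71, 0.85, -0.080, 0.0096 and -0.25. SLC22A7, another organic anion transporter, had ratios of 1.84 in pig 5 and 1.27 in pig 6 and of -0.45 to 0.34 in the other 5 pigs. SLC22A4, which takes up ergothioneine and carnitine, had a mean of 0.079 (SE 0.17).

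In the same class 3 genes could not be tested because they were at the floor on 12 of the 14 arrays. The organic cation transporter SLC22A2, known from the kidney, had a processed signal of 1715 on the WOd array of pig 7 and of 420 on the Sd array of pig 8, against 3.8 to 20.6 on the other arrays. A second probe of SLC22A2 had 156 on the Sd array of pig 1 and 2.1 to 12.2 elsewhere, so the probes did not mark the same arrays. SLC17A1, a transporter of phosphate and urate, had 67.6 on the Sd array of pig 6 and 53.7 on the WOd array of pig 5. SLC22A8, an exchanger of organic anions, had 113 on the Sd array of pig 8 and 29.9 on that of pig 5. The signals thus appeared in Sd and in onion segments. The Sd array of pig 8 and the WOd array of pig 7 were also those with the lowest shares of probes well above background. No ratio is given for these 3 genes.

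Metals and heme were the largest class, with 13 measured genes, 8 with a mean ratio above 0 and 5 below (class median 0.015), and none was called. SLC11A1, a divalent metal transporter of phagocytes, had ratios of 0.85, 0.10, 0.40, 0.63, 0.60, -0.25 and 0.31 (mean 0.38, SE 0.13, raw p 0.0182). A second probe of SLC11A1 with a signal of the same order gave a mean of -0.18, so the direction depended on the probe. SLC11A2, the apical iron transporter, had ratios from -0.24 to 0.28 and a mean of 0.0053 (SE 0.099). The zinc exporter SLC30A1, whose expression follows cellular zinc, was lower in 5 of 7 pigs (mean -0.18, SE 0.14), and its second probe had the same sign in every pig. SLC30A7, a zinc transporter of the Golgi apparatus, had a mean of 0.066 (SE 0.10). In pig 7 the zinc transporter genes SLC30A3 and SLC30A9 had ratios of -1.11 and -1.28, while the other pigs lay between 0.029 and 0.78 and between -0.49 and 0.63. SLC41A1, a magnesium transporter, had a ratio of -1.84 in pig 8 and was at the floor on 6 arrays.

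**Figure D3:**
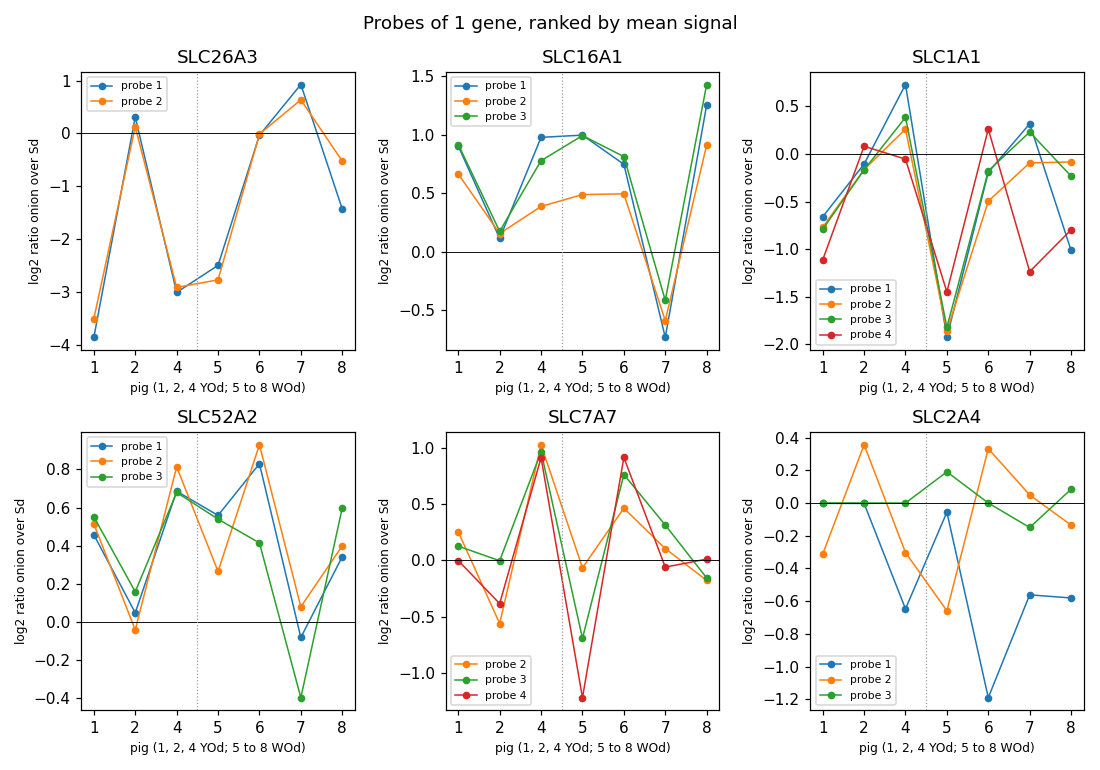
Log2 ratio onion over Sd by pig for each probe of 6 solute carrier genes that was well above background on at least 7 arrays and not saturated on all, ranked by mean signal. The probes of SLC26A3 share a sign in every pig, as do those of SLC16A1, those of SLC2A4 do not, and probe 1 of SLC7A7 is absent because it was saturated.

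Of the 5 mitochondrial carriers with a measured ratio, SLC25A23, a calcium-sensitive ATP-Mg/phosphate carrier, was higher in all 7 pigs. Its ratios were 0.34, 0.25, 0.068, 1.22, 0.68, 0.061 and 0.62, and the mean was 0.46 (SE 0.15, raw p 0.00969, adjusted p 0.635). The signal was dim, with levels of -4.43 to -3.44 on the Sd arrays, and the Sd array of pig 5 was at the floor, so the ratio of that pig is a lower bound. SLC25A24, a related carrier, had a mean of -0.069 (SE 0.13), and SLC25A27, an uncoupling protein, had ratios from -0.90 in pig 7 to 0.69 in pig 8. The strongest probe of SLC25A3 was saturated on all arrays, and 4 weaker probes without saturation gave mean ratios of 0.0049 to 0.051. The 1 probe of SLC25A6 without saturation had a mean ratio of 0.055. Of the carriers of nucleotide sugars into the Golgi apparatus, SLC35C1 for GDP-fucose had a mean of 0.048 (SE 0.11). SLC35A4 had ratios from -0.72 to 0.75 and probes of opposite sign. SLC28A1, the sodium-dependent transporter of pyrimidine nucleosides, had ratios from -0.65 to 0.27 (mean -0.084, SE 0.13), and the creatine transporter SLC6A8 from -0.54 to 0.26 (mean -0.14, SE 0.12). The members without a settled substrate were SLC35F5 (mean -0.20, SE 0.18) and SLC10A7 (mean 0.29, SE 0.19). The phosphate transporters SLC34A1 and SLC34A2, of which SLC34A2 is the intestinal form, were at the floor on 12 and 10 arrays and were not tested over the 7 pigs.

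From a list of 34 transporters known from intestinal absorption and antioxidant defence, 14 were among the 75 solute carrier genes described here. These were SLC11A2, SLC15A1, SLC16A1, SLC1A1, SLC22A4, SLC26A3, SLC26A6, SLC28A1, SLC30A1, SLC34A2, SLC3A1, SLC4A4, SLC7A7 and SLC7A9. Of these 14, SLC16A1 was called higher and SLC26A3 lower over the 7 pigs, 10 were tested and not called, SLC7A7 was saturated and SLC34A2 was not tested. The other 20 transporters of the list were not among the 75, for want of a named probe or because the rule left them out. The cystine transporter SLC7A11 had no probe named here.

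The effect of each onion was examined separately in its own pigs. In YOd/Sd (3 pigs) 3 of 62 solute carrier genes were called, against 4.50% of all 2464 genes. Of these, 2 were higher and 1 lower, against 3.57% and 0.933% of all genes, and 7 of the 62 (11.3%) had a raw p below 0.05, against 10.9% of all genes. Without scaling between arrays, which moved the median of all genes from 0.14 to -0.16, 4 were called and all were lower (SLC26A3, SLC30A1, SLC4A4 and SLC6A8). The array as a whole leaned the same way in that setting, with 103 of all 2464 genes called and only 8 of them higher. The values that follow are those with scaling. SLC16A1 was higher by 0.66 (SE 0.21, raw p 0.0162), SLC22A6 by 0.62 (SE 0.23, raw p 0.0339), and SLC26A3 was lower, with a ratio of -2.18 (SE 0.72, raw p 0.0213). All 3 had an adjusted p of 0.391. Each of these genes had a ratio near 0 in pig 2, between 0.00037 and 0.31. Pig 2 had the smallest ratios of all pigs, with none of the 58 measured genes beyond 1.5-fold. Without pig 2, 8 solute carrier genes were called, against 13.3% of all genes, and 3 passed the adjustment, against 3.90% of all genes. These were SLC26A3 (ratio -3.43, adjusted p 0.000338), SLC16A1 (0.94, adjusted p 0.0344) and SLC22A6 (0.94, adjusted p 0.0403), with pigs 1 and 4 as the only pigs in that fit. Without pig 1 or pig 4 none was called.

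In WOd/Sd (4 pigs) 3 of 62 genes were called, against 1.18% of all 2467 genes, with an adjusted p of 0.998 each. Among them 2 were higher and 1 lower, against 0.770% and 0.405% of all genes, and 7 of the 62 (11.3%) had a raw p below 0.05, against 2.59% of all genes. SLC25A23 was higher by 0.64 (SE 0.21, raw p 0.0177) and SLC24A2, a sodium/calcium exchanger that also carries potassium, by 0.62 (SE 0.19, raw p 0.0140). Both were dim: the Sd array was well above background in 3 and 2 of the 4 pigs, and 1 Sd array of each was at the floor. SLC2A4 was lower, with a ratio of -0.60 (SE 0.21, raw p 0.0233). The SLC16A1 ratio in these pigs was 0.57 (SE 0.32, raw p 0.125) and that of SLC26A3 was -0.76 (SE 0.52, raw p 0.188). Without pig 7 the ratios of SLC16A1 and SLC26A3 were 1.00 and -1.32 and 7 genes were called, against 3.69% of all genes, none with an adjusted p under 0.05 (0.0811% of all genes). Without pig 5 SLC2A4 alone was called, against 2.15% of all genes.

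A call in 1 onion and not in the other does not show that the onions differed. The WOd effect was therefore subtracted from the YOd effect and this difference was tested. Of 64 solute carrier genes tested, 3 (4.69%) were called, against 3.52% of 2558 genes, and none passed the adjustment (adjusted p 0.850). All 3 had a more negative effect of YOd (background 1.29%), and none a more positive one (background 2.23%). The same 3 genes were those with a raw p below 0.05, against 4.22% of all genes. These were SLC23A2 with a difference of -0.68 (SE 0.23), SLC24A2 with -0.63 (SE 0.24) and SLC5A10 with -0.61 (SE 0.26). SLC23A2 was well above background on 13 arrays. For SLC26A3 the difference was -1.43 (SE 1.06, raw p 0.214), for SLC22A6 0.49 (SE 0.35, raw p 0.195) and for SLC16A1 0.10 (SE 0.47, raw p 0.838). With 3 and 4 pigs these errors leave room for differences in either direction.

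**Figure D4:**
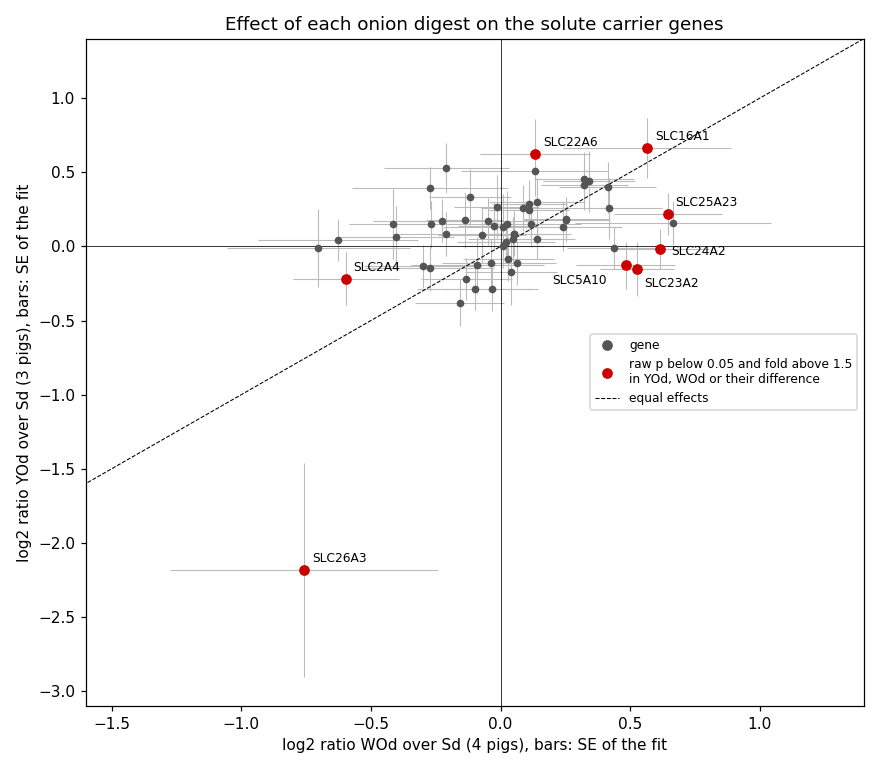
Log2 ratio of YOd over Sd in 3 pigs against that of WOd over Sd in 4 pigs for the 58 measured solute carrier genes, with bars for the SE of the limma fit and a dashed line for equal effects. Genes past the thresholds in YOd, WOd or their difference are red and named. SLC26A3 lies far below all others at -2.18 for YOd and -0.76 for WOd, with the widest bars.

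The spread between pigs of the solute carrier genes was similar to that of other genes. For the 52 that were well above background on all arrays and not saturated on all, the SD of the level over the 7 Sd segments had a median of 0.40, against 0.38 for 2031 genes chosen in the same way. The SD of the ratio had a median of 0.35, against 0.32. SLC26A3 had an SD over the Sd segments of 1.34, above 98.5% of these genes, and an SD of the ratio of 1.82, above 99.6%. SLC11A1 (0.93), SLC22A13 (0.87), SLC1A1 (0.79), SLC35A4 (0.78), SLC35F5 (0.72) and SLC3A1 (0.71) followed in the SD over the Sd segments. SLC30A7 (0.18), the copper transporter SLC31A2 (0.18) and SLC9A2 (0.21) had the most even levels between pigs. For SLC11A1 and SLC22A13 the ratio varied far less over the pigs than the level on the Sd arrays did, with SDs of the ratio of 0.37 and 0.29.

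**Figure D5:**
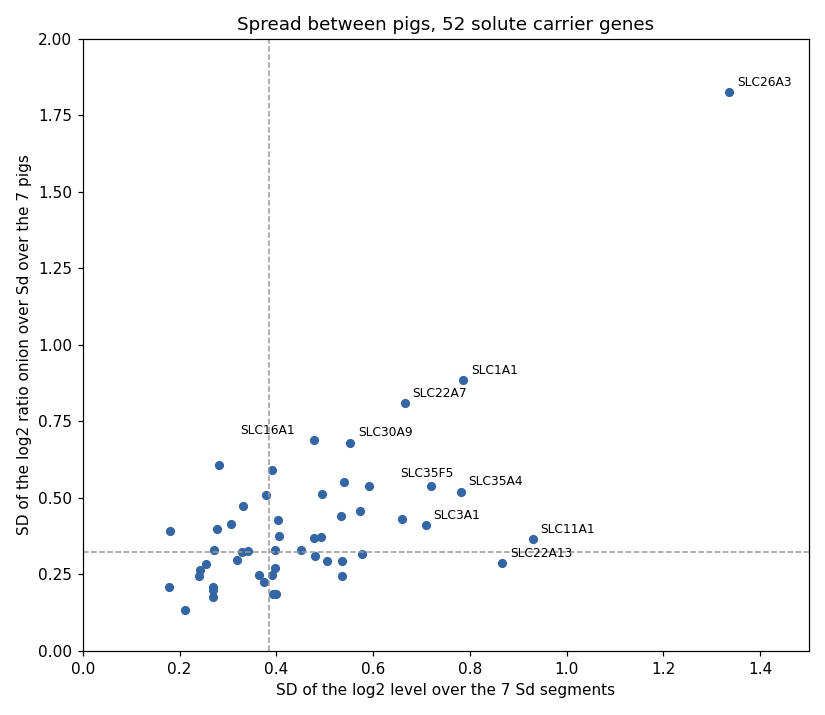
SD of the log2 level over the 7 Sd segments against the SD of the log2 ratio onion over Sd over the 7 pigs for 52 solute carrier genes, with dashed lines at the medians of 2031 genes (0.38 and 0.32). SLC26A3 stands alone at the upper right, and SLC11A1 and SLC22A13 lie at the lower right.

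The pigs also differed in how many solute carrier genes were beyond 1.5-fold. Of the 58 measured genes, 15 were higher and 2 lower in pig 4, 14 higher and 3 lower in pig 6, 10 higher and 5 lower in pig 5, and 6 higher and 3 lower in pig 1. In pig 8, 4 were higher and 8 lower, in pig 7, 5 each way, and in pig 2 none. The shares were 29.3%, 29.3%, 25.9%, 15.5%, 20.7%, 17.2% and 0% in the order just given, against 22.9%, 16.8%, 17.1%, 15.8%, 12.7%, 19.5% and 2.74% of all genes. For 33 solute carrier genes more than 1 probe could be measured. The probes of a gene had the same sign of the mean ratio in 24 of them and opposite signs in 9.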

How the data were processed

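Total RNA of mucosal scrapings was hybridised to 1-colour Agilent pig arrays (Cy3), with 1 array per segment. The authors deposited the processed signal, median intensity and local background intensity of each spot from Feature Extraction 10.7.3.1. The authors also deposited a table of log2 values for 28369 probes, made with flooring and, per the submitters' processing notes, RMA. The values of this table lie near 0 per probe, with a median size of the probe medians of 0.0523. Its exact centring and its scaling are not known. Columns had medians from -0.0488 to 0, and each of the 14 correlated best with its own scanner file (r from 0.885 to 0.952), which settles the direction.

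Outlier spots were left out (5 to 462 of 43803 per array), and the processed signals of the remaining spots were averaged by probe. Each array was scaled to its own 75th percentile, and a floor was set at the 40th percentile of the scaled values pooled over the arrays before log2 was taken. RefSeq accessions of 6686 of 7111 probes matched a symbol of the Sscrofa11.1 reference, used for names only.

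All named genes entered a limma fit (version 3.58.1, R 4.3.3) in which each pig was a block. Both arrays of a number come from the same animal, and after subtraction of group means they correlated with r from 0.495 to 0.723 over 2400 genes. Testing required a signal over the floor on 7 or more arrays (onion over Sd), 3 (YOd/Sd and the difference) or 4 (WOd/Sd). A call required a raw p below 0.05 together with a fold change above 1.5, with Benjamini-Hochberg values over all genes tested. The number of arrays limits the precision.

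The genes, classes, marker lists and tests were chosen with earlier results of these data known. Named genes were 37: the listed transporters, called genes, up to 3 largest changes each way with 1 sign in all pigs, and per class the largest and smallest SD over Sd arrays. Further genes were named after their values were seen. Among them are SLC7A1, SLC7A3, SLC12A4, SLC17A1, SLC22A2, SLC22A7, SLC22A8, SLC26A11, SLC30A3, SLC30A9, SLC31A2 and SLC41A1, the saturated and scaffold genes, SLC5A11, SLC30A2, SLC26A4 and SLC34A1.

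On simulated data with 200 changed genes, 93% of 2-fold changes were recovered over the 7 pigs (2400 genes), 88% in YOd/Sd (2412), 93% in WOd/Sd (2414) and 86% for the difference (2502). Of the unchanged genes in these data, 0.591% were called over the 7 pigs, 2.31% in YOd/Sd, 1.45% in WOd/Sd and 3.17% for the difference. The alternatives changed the scaling, background correction, floor, filter, probe, processed values, block, slide and centring, and left out each pig. The scanner files used held no mean signal, so normexp took the median signal. Pig 3 was not analysed here. All other steps were run in Python 3.11.15.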

Additional observations from a re-analysis of the deposited data

Results flagged for a closer look

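Among 108 groups of values tested for an extreme sample, 3 had one, and chance gives about 1 in 20. The level of SLC10A7 on the Sd array of pig 6 was 0.0563, whereas the other 6 Sd arrays lay between -1.17 and -0.69. The ratio of SLC19A2, the thiamine transporter, was 0.51 in pig 7, against -0.31 to 0.028 in the other pigs. The ratio of SLC38A5 was 0.66 in pig 6, against 0.018 to 0.24 in the other pigs.

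The effects of both onions differed past the raw thresholds in 3 genes, none of which passed the Benjamini-Hochberg adjustment in limma (adjusted p 0.850). For SLC23A2 the YOd effect was -0.15 and the WOd effect 0.53, a difference of -0.68, and the WOd segment was higher in all 4 WOd pigs. For SLC24A2 the effects were -0.017 and 0.62, a difference of -0.63, with 3 arrays at the floor. For SLC5A10 they were -0.13 and 0.48, a difference of -0.61, and a second probe of SLC5A10 gave a ratio of 0.89 in pig 2 and -0.32 in pig 7, opposite in sign to the strongest probe.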

How the results depend on the processing

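Of 2 solute carrier genes called over the 7 pigs, 1 remained with no scaling, normexp, the mean of all probes or ratios relative to the median of all genes (in each case SLC26A3), and 1 with no filter, the authors' processed values or no replicate block (SLC16A1). Calls among all genes went from 30 to 15, 19, 26 and 22, and to 20, 16 and 11, in the order of these settings. The 3 calls of YOd/Sd became 1 with quantile normalization, normexp, the mean of all probes or the median of all genes, 0 with no filter, the processed values or no replicate block, and 8 with the slide as a fixed effect or only pigs with both arrays on 1 slide. For all genes, 111 calls became 63, 63, 80 and 95, then 20, 10 and 19, and 327 with either slide setting. Without scaling the calls were 0 higher and 1 lower over the 7 pigs, 0 and 4 in YOd/Sd (2 and 1 as reported), 1 and 1 in WOd/Sd, and 0 and 4 for the difference. All genes together had 15, 103, 24 and 101 calls without scaling, in the same order. Of these, 3, 8, 15 and 7 were higher. The 3 calls of WOd/Sd became 0 with normexp, the mean of all probes or the processed values, 1 among genes well above background on all arrays, and 7 with either slide setting. For all genes, 29 calls became 13, 28, 12, 23 and 91 in the same order. Of 3 calls for the difference, 1 remained in number with normexp, no floor, the lower floor, the mean of all probes or the processed values, and 0 with no replicate block. For all genes, 90 calls became 53, 84, 86, 62 and 38, and 5 with no replicate block. Leaving out a pig gave 0 to 2 calls over the 7 pigs, 0 to 8 for YOd, 1 to 7 for WOd and 1 to 5 for the difference. The ranges for all genes were 17 to 49, 44 to 327, 43 to 91 and 45 to 157. Over the 7 pigs 0 remained without pig 1, 4 or 5. For the difference 1 was called without pig 1 (SLC23A2), 1 without pig 4 and 5 without pig 8, against 48, 45 and 99 of all genes. The call without pig 4 was SLC7A2, with a more positive effect of YOd, so none of the 3 reported calls remained. The median ratio of the solute carrier genes tested, 0.070, became -0.0800 without scaling and -0.0148 relative to all genes. The slide as a fixed effect uses the same pigs as the setting that drops pigs 2 and 7, since the block on pig leaves those pigs no share in it.

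SLC26A3 kept a lower mean and lost its call with no filter (-1.37), the processed values (-1.39) and no replicate block (-1.37). SLC16A1 kept a higher mean and lost its call with no scaling (0.46), normexp (0.46), the mean of all probes (0.55) and the median of all genes (0.52). Leaving out a pig gave -1.75 to -0.95 for SLC26A3 and 0.50 to 0.83 for SLC16A1. Signs reversed in the genes that follow, among them SLC11A1 and SLC2A4 with a raw p below 0.05 at the strongest probe. Without scaling SLC11A2 was at -0.14, SLC15A1 at -0.0851, SLC22A4 at -0.0711, SLC30A7 at -0.0839, SLC35C1 at -0.10 and SLC9A2 at -0.0485. Relative to all genes SLC11A2 was at -0.0797, SLC15A1 at -0.0199, SLC22A4 at -0.00591, SLC30A7 at -0.0187 and SLC35C1 at -0.0374. SLC11A2 was at -0.0186 with normexp, at -0.0215 with the mean of all probes and at -0.0169 with the processed values. SLC19A2 with normexp and SLC35A4 with the mean of all probes came to 0.0015 and 0.0022. With either slide setting SLC25A24 was at 0.00065 and SLC25A27 at 0.0582. A second probe gave -0.18 for SLC11A1, -0.0483 for SLC11A2, 0.11 for SLC35A4, 0.0017 for SLC38A6 and -0.0117 for SLC9A2, and probe 3 gave 0.0178 for SLC2A4. The ranges over pigs left out crossed 0 for SLC11A2 (-0.0409 to 0.0464), SLC15A1 (-0.00987 to 0.17), SLC19A2 (-0.11 to 0.0290), SLC22A4 (-0.0357 to 0.18), SLC25A24 (-0.14 to 0.0162), SLC25A27 (-0.18 to 0.0855) and SLC28A1 (-0.14 to 0.0102). Of the other results of named genes, 706 kept their sign and their side of the thresholds, and 16 lost a call. The use of further probes and the removal of saturated genes were chosen after seeing the data. The cause of these changes was not tested. Saturation limits the strongest probe of 4 genes, and the floor kept 13 genes out of the test over the 7 pigs.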
